A study of Danio rerio with 15 samples.

Results

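The genes described here are 10 genes of RNA sensing and the interferon response, chosen by name: the RNA sensors ifih1, dhx58 and ddx58, the transcription factor irf7, the signal transducers stat1a, stat1b and stat2, and the effectors isg15, rsad2 and mxa. Of these, 9 were found by name among the 23009 genes of the deposited tables, and ddx58 was not analysed here. Their RNA was measured by RNA sequencing in 15 pools of zebrafish (Danio rerio) embryo heads at 2 days post-fertilization, 20 embryos per pool. The embryos came from natural matings of adult wild-type fish and were kept at 28 °C. The 3 groups, with 5 libraries each, had been injected with a guide RNA against ncapg2 plus Cas9, with that guide RNA alone, or with phenol red, the dye used to follow an injection. ncapg2 encodes a subunit of condensin II. Embryos injected with Cas9 are mosaics of edited and unedited cells. The sources used here do not give how the guide RNA was made, its dose or the form of Cas9. The question put to these genes is whether guide RNA, with or without Cas9, was accompanied by an innate RNA response at this age.

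In vertebrate cells, RIG-I-like receptors bind foreign or unusual RNA in the cytosol and signal through the adaptor Mavs to kinases that activate interferon regulatory factors. Secreted interferon then acts through its receptors and Janus kinases on transcription factors, which switch on interferon-stimulated genes. Guide RNA transcribed with a phage polymerase carries a triphosphate at its 5′ end, a feature that RIG-I recognises in mammalian cells. In zebrafish, isg15, rsad2 and mxa are effector genes that respond to virus and to interferon.

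None of the 8 genes that could be tested was called different in any comparison, by limma, edgeR or DESeq2. Against phenol red, the libraries with Cas9 plus guide RNA gave 0 of 8 genes called, and those with guide RNA alone gave 0 of 8. Cas9 plus guide RNA against guide RNA alone also gave 0 of 8. Hardly any gene was called: 0.00463% of all genes in each comparison with Cas9 and 0% for guide RNA against phenol red (limma). A lack of calls does not show that the groups are alike. The ninth gene, mxa, was too low to enter the test. The gene that stood out among them was stat1b, which averaged 16.7 ± 3.5 with Cas9 plus guide RNA, 10.5 ± 1.45 with guide RNA and 18.8 ± 3.77 with phenol red (SD, n = 5 each), a pattern that did not pass after adjustment over all genes. The effector genes isg15, rsad2 and mxa had 5 to 22 reads per library with Cas9 plus guide RNA, 2 to 15 with guide RNA and 1 to 19 with phenol red.

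Depth was 41.58 to 48.51 M reads (M, mega) with Cas9 plus guide RNA, 39.79 to 49.3 M with guide RNA and 34.97 to 46.46 M with phenol red, as reads recovered from the deposited values. The targeted gene ncapg2 had a normalized count of 428 ± 48.4 with Cas9 plus guide RNA, 912 ± 73.7 with guide RNA and 856 ± 69.7 with phenol red (SD, n = 5 each). All 9 brain and all 6 eye markers were found, and the brain markers summed to a normalized count of 71361 to 80453 with Cas9 plus guide RNA, 64127.5 to 81959.5 with guide RNA and 57659.6 to 79421.5 with phenol red. The eye markers summed to 76604 to 98462.8 with Cas9 plus guide RNA, 55211 to 85085 with guide RNA and 70297 to 88361 with phenol red. Markers of tissue outside the head (posterior hox, liver and yolk genes) summed to 721 to 50458 with Cas9 plus guide RNA, 5928 to 53360 with guide RNA and 4972 to 68659 with phenol red, so the pools differed in how much of such RNA they held within every group. Libraries also fell into 5 sets, A to E, each with 1 library per group. The sets were found from the values as the best of 14400 ways of matching. They account for a median of 58.4% of a gene's variance over the 15 libraries, against 6.85% for the group. The sets were picked for likeness over these same values, so their share is no test of them. They also follow the running order of the columns within each group, which the search did not use. With 5 sets against 3 groups, chance alone would also give the sets the larger share. The sources used here do not say what the sets are. The set A library had the highest sum of markers of tissue outside the head in every group. These sums were 50458 with Cas9 plus guide RNA, 53360 with guide RNA and 68659 with phenol red. Normalized counts below are in the order of sets A to E. They are not divided by gene length, so levels are compared between libraries and not between genes. In such bulk samples, fewer cells of a type and less RNA per cell cannot be told apart.

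The cytosolic sensors come first in the pathway. There were 84 to 143 reads per library for ifih1 and 17 to 58 for dhx58, and ddx58 was not analysed. ifih1 (ENSDARG00000018553) encodes Mda5, which binds long double-stranded RNA. It had normalized counts of 93.6, 122, 118, 117 and 103 with Cas9 plus guide RNA, 99.9, 96.9, 124, 123 and 127 with guide RNA and 89, 117, 139.9, 106 and 89.7 with phenol red. The groups overlapped throughout, and the lowest as well as the highest of the 15 libraries carried phenol red. Means were 111 ± 11.8 with Cas9 plus guide RNA, 114 ± 14.4 with guide RNA and 108 ± 21.2 with phenol red (SD, n = 5 each). For ifih1 the log2 fold change was 0.085 ± 0.14 (SE) for guide RNA against phenol red and 0.042 ± 0.14 for Cas9 plus guide RNA against phenol red. The 95% intervals held fold changes of 0.85 to 1.32 for guide RNA and 0.83 to 1.27 for Cas9 plus guide RNA, each against phenol red.

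dhx58 (ENSDARG00000089463) encodes Lgp2, the third RIG-I-like receptor, which lacks the signalling domains of the other two and regulates them. Its normalized counts were 23, 22.7, 31.2, 34.9 and 24.7 with Cas9 plus guide RNA. They were 54.2, 20.2, 26.8, 43.1 and 16.5 with guide RNA, and 23.3, 18.7, 28, 35.1 and 24.5 with phenol red. The guide RNA group held both the highest and the lowest library of all 15, in sets A and E, and its SD was 16 against 5.47 with Cas9 plus guide RNA and 6.11 with phenol red. The log2 fold change of dhx58 for guide RNA against phenol red was 0.20 ± 0.31 (SE), and it was -0.021 at the lower end when 1 library was left out in turn. With Cas9 plus guide RNA against phenol red it was 0.082 ± 0.21.

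irf7 (ENSDARG00000045661) encodes the interferon regulatory factor that amplifies the interferon response. It had normalized counts of 78, 54.2, 80.6, 62.8 and 91 with Cas9 plus guide RNA, 101, 49, 78.7, 69.2 and 83.4 with guide RNA and 106, 68.3, 99.1, 73.8 and 80.6 with phenol red. Set B gave the lowest library of every group, between ranks 12 and 15 of 15, and the groups overlapped. For irf7 the log2 fold change was -0.22 ± 0.17 (SE) for Cas9 plus guide RNA against phenol red and -0.18 ± 0.19 for guide RNA against phenol red, with 95% intervals of -0.60 to 0.15 and -0.60 to 0.24. The library sets held 75.5% of the variance of irf7 and the group 10.3%.

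**Figure D1:**
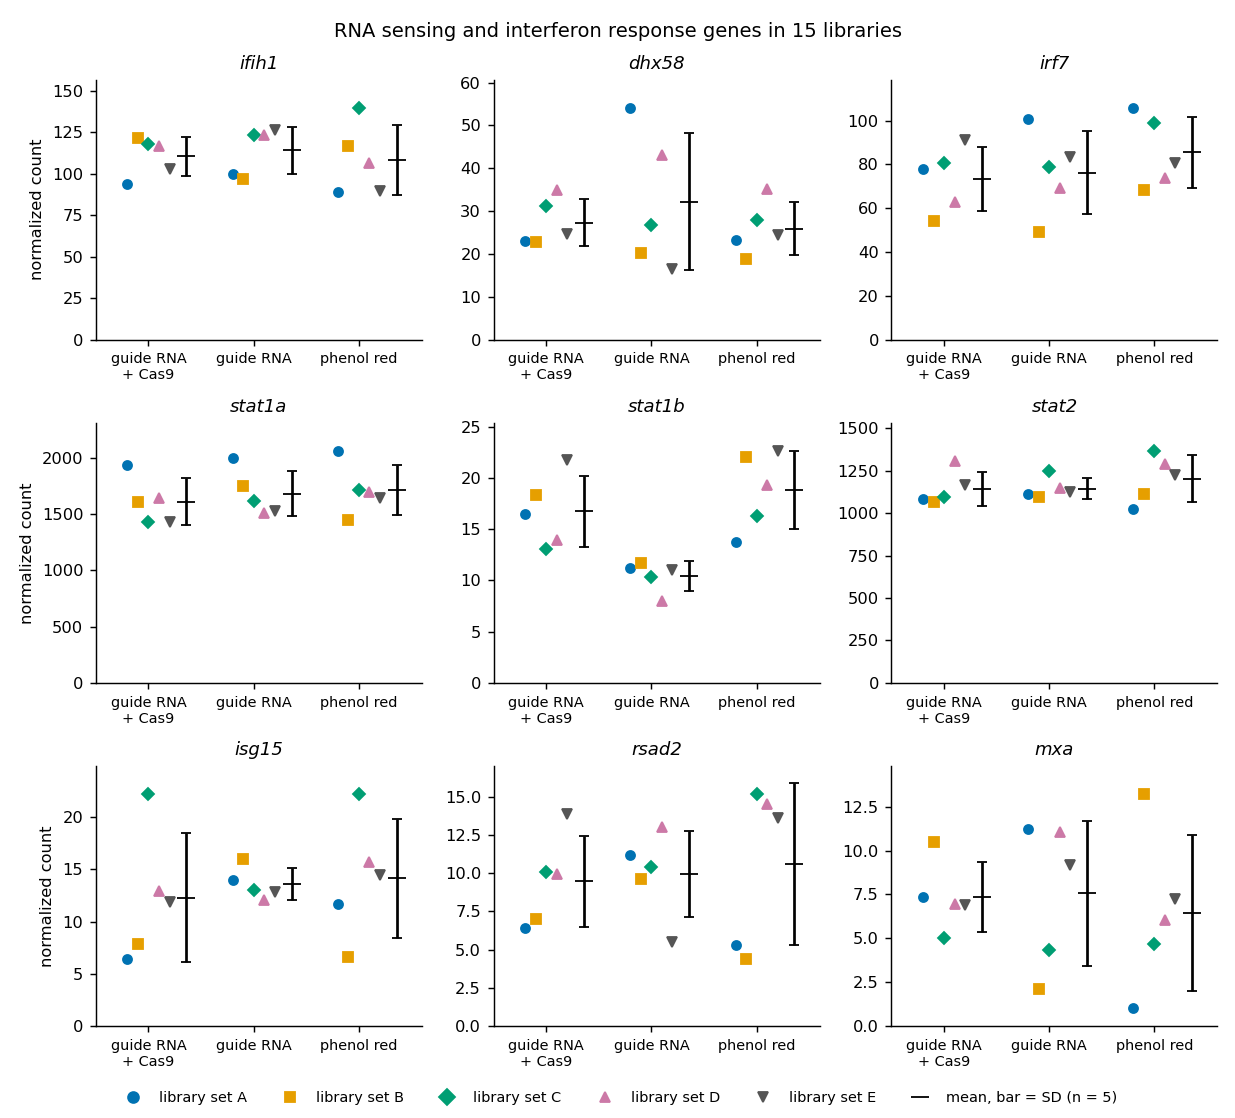
Normalized counts (reads over the authors' size factor, y axes from 0) of the 9 genes in each of the 15 libraries, by group. Each symbol is 1 library, its shape and colour give the library set, and bars show the mean ± SD (n = 5). Groups overlap for every gene except stat1b, where the guide RNA libraries, at 8.02 to 11.7, all sit below the libraries of the other groups.

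The genes for signal transducers begin with stat1a (ENSDARG00000006266). In normalized counts, it stood at 1937, 1607, 1433, 1644 and 1426 with Cas9 plus guide RNA, 1997, 1747, 1619, 1512 and 1524 with guide RNA and 2061, 1443, 1713, 1699 and 1639 with phenol red. Set A gave the highest library of each group, and these were the 3 highest of all 15. The library sets held 71.9% of the variance of stat1a and the group 5.16%. Means were 1609.5 ± 208 with Cas9 plus guide RNA, 1679.8 ± 201 with guide RNA and 1711 ± 224 with phenol red (SD, n = 5 each). stat1a had a log2 fold change of -0.088 ± 0.10 (SE) for Cas9 plus guide RNA against phenol red, -0.025 ± 0.10 for guide RNA against phenol red and -0.063 ± 0.10 for Cas9 plus guide RNA against guide RNA. With 8460 summed reads in the Cas9 group, 8820 in the guide RNA group and 7938 in the phenol red group, counting error was small beside the spread between pools, at an SD of 39.3 from counting alone against 208 observed with Cas9 plus guide RNA.

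stat2 (ENSDARG00000031647) encodes a part of the factor that carries the type I interferon signal. Its normalized counts ran from 1066 to 1305 with Cas9 plus guide RNA, 1093 to 1249 with guide RNA and 1024 to 1368 with phenol red, and the phenol red range held both of the others. Its log2 fold changes were -0.071 ± 0.085 (SE) for Cas9 plus guide RNA against phenol red, -0.067 ± 0.08 for guide RNA against phenol red and -0.0044 ± 0.065 for Cas9 plus guide RNA against guide RNA. stat2 had the narrowest intervals of these genes, with fold changes of 0.85 to 1.08 for guide RNA against phenol red.

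stat1b (ENSDARG00000076182) is another of the genes for signal transducers. Its normalized counts were 16.5, 18.4, 13.1, 14 and 21.8 with Cas9 plus guide RNA, 11.2, 11.7, 10.4, 8.02 and 11 with guide RNA and 13.8, 22, 16.3, 19.4 and 22.6 with phenol red. All 5 guide RNA libraries were below all 10 libraries of the other groups, while the Cas9 and phenol red groups overlapped. The log2 fold change of stat1b was -0.78 ± 0.23 (SE; 95% interval -1.27 to -0.28) for guide RNA against phenol red. For Cas9 plus guide RNA against guide RNA it was 0.62 ± 0.23 (95% interval 0.13 to 1.11). For Cas9 plus guide RNA against phenol red it was -0.16 ± 0.23 (95% interval -0.65 to 0.33). The first 2 comparisons share the guide RNA libraries, so they are not independent of each other. Neither passed after adjustment over all genes (limma, Benjamini-Hochberg adjusted p = 1.0 for each).

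The group held 68.0% of the variance of stat1b, more than in 99.97% of 21902 genes. The difference rests on few reads. The summed reads of stat1b were 88 with Cas9 plus guide RNA, 55 with guide RNA and 88 with phenol red. Per M reads of the group that is 0.401 with Cas9 plus guide RNA (95% Poisson interval 0.322 to 0.494), 0.25 with guide RNA (0.189 to 0.326) and 0.461 with phenol red (0.37 to 0.568). The intervals of the guide RNA and phenol red groups do not overlap, those of the guide RNA and Cas9 groups just do, and all cover counting error only. Within each group the spread between libraries was no larger than counting gives, with an SD of 3.5 observed against 4.0 from counting alone with Cas9 plus guide RNA, 1.45 against 3.16 with guide RNA and 3.77 against 4.53 with phenol red. Per 1000 reads of stat1a in the same library, stat1b had 8.49 to 15.27 reads with Cas9 plus guide RNA, 5.305 to 7.22 with guide RNA and 6.684 to 15.26 with phenol red. On that scale the guide RNA and phenol red groups overlapped. In the authors' deposited table, stat1b had a log2 fold change of -0.85 ± 0.32 (SE) for guide RNA against phenol red, with p = 0.0075 before adjustment. In the authors' deposited table, Cas9 plus guide RNA against guide RNA gave stat1b 0.68 ± 0.32 (SE), with p = 0.033 before adjustment. As for stat1b, the mean of the summed eye markers was lowest with guide RNA, at 85320.4 with Cas9 plus guide RNA, 70722 with guide RNA and 78116 with phenol red, though these groups overlapped. This was not particular to the eye. The guide RNA mean of the summed counts was also the lowest for markers of epidermis, endothelium, erythroid cells and tissue outside the head. For epidermis it was 450846, close to the 451652 with Cas9 plus guide RNA, against 466729 with phenol red. For endothelium it was 6878, against 7043 with Cas9 plus guide RNA and 7213 with phenol red. It was not the lowest for brain or for macrophage and neutrophil markers. In such sums the most abundant genes weigh most. Gene by gene, 3 of 4 endothelium markers had a log2 fold change above 0 for Cas9 plus guide RNA over guide RNA, beside 50.9% of all genes. For epidermis it was 2 of 6, for erythroid cells 1 of 3 and for tissue outside the head 2 of 8, so most of these were lower with Cas9. Of the 6 eye markers, 6 were higher in log2 fold change for Cas9 plus guide RNA over guide RNA, beside 50.9% of all genes. For guide RNA over phenol red 2 of 6 were higher, beside 54.7%. Of these markers 0 were called, beside 0.00463% and 0% of all genes, and none was at 0 in every library. Before adjustment (limma, p under 0.05), 1 of 6 was higher with Cas9 over guide RNA, beside 0.917% of all genes in either direction. For guide RNA against phenol red 1 of 6 was lower, beside 1.04%, and 0 went the other way in each. The part of any of these tissues in the value of stat1b was not tested. stat1a and stat1b are paralogs, and the sources used here do not give how the counting treated reads that match both.

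isg15 (ENSDARG00000086374) encodes the ubiquitin-like modifier that interferon induces. It had normalized counts of 6.43, 7.87, 22.2, 13 and 11.9 with Cas9 plus guide RNA, 14, 16, 13, 12 and 12.8 with guide RNA and 11.7, 6.61, 22.2, 15.7 and 14.5 with phenol red. The guide RNA values lay close together, inside the range of both other groups. In the Cas9 and phenol red groups set C was highest and sets A and B were lowest. isg15 had a log2 fold change of -0.21 ± 0.37 (SE) for Cas9 plus guide RNA against phenol red and 0.03 ± 0.29 for guide RNA against phenol red, the second of which was -0.055 ± 0.39 in the authors' deposited table.

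rsad2 (ENSDARG00000004952) encodes viperin, an enzyme that blocks the replication of many viruses. The libraries had normalized counts of 6.43, 6.99, 10.1, 9.97 and 13.9 with Cas9 plus guide RNA, 11.2, 9.59, 10.4, 13 and 5.5 with guide RNA and 5.3, 4.4, 15.2, 14.5 and 13.6 with phenol red. The phenol red libraries were split, with sets A and B below every library of the other groups. Sets C and D were above every library of the other groups, and set E above all but 1. Log2 fold changes of rsad2 were -0.043 ± 0.38 (SE) for Cas9 plus guide RNA against phenol red and 0.022 ± 0.39 for guide RNA against phenol red.

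mxa (ENSDARG00000021688) encodes an antiviral GTPase of the Mx family. It reached a normalized count of 10 in 4 of 15 libraries, below the filter of 10 in at least 5 libraries of a comparison. Its normalized counts were 7.35, 10.5, 5.04, 6.98 and 6.93 with Cas9 plus guide RNA, 11.2, 2.13, 4.32, 11 and 9.17 with guide RNA and 1.06, 13.2, 4.66, 6.05 and 7.25 with phenol red. The lowest and the highest library both carried phenol red. In a fit without the filter, its log2 fold change was 0.39 ± 0.46 (SE) for Cas9 plus guide RNA against phenol red and 0.27 ± 0.55 for guide RNA against phenol red.

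These 3 effector genes, like stat1b, had few reads per library: 6 to 22 for isg15, 4 to 15 for rsad2 and 1 to 12 for mxa. Per M reads of the group, isg15 had 0.323 reads with guide RNA (95% Poisson interval 0.252 to 0.408), against 0.341 with phenol red (0.263 to 0.434). rsad2 had 0.237 with guide RNA (0.177 to 0.31), against 0.257 with phenol red (0.19 to 0.339). mxa had 0.182 with guide RNA (0.13 to 0.248), against 0.157 with phenol red (0.106 to 0.224). The intervals overlap for each gene. For guide RNA against phenol red, the upper 95% bound of the fold change was 1.59 for isg15, 1.82 for rsad2 and 2.76 for mxa. For Cas9 plus guide RNA against phenol red the bounds were 1.5 for isg15, 1.73 for rsad2 and 2.61 for mxa.

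**Figure D2:**
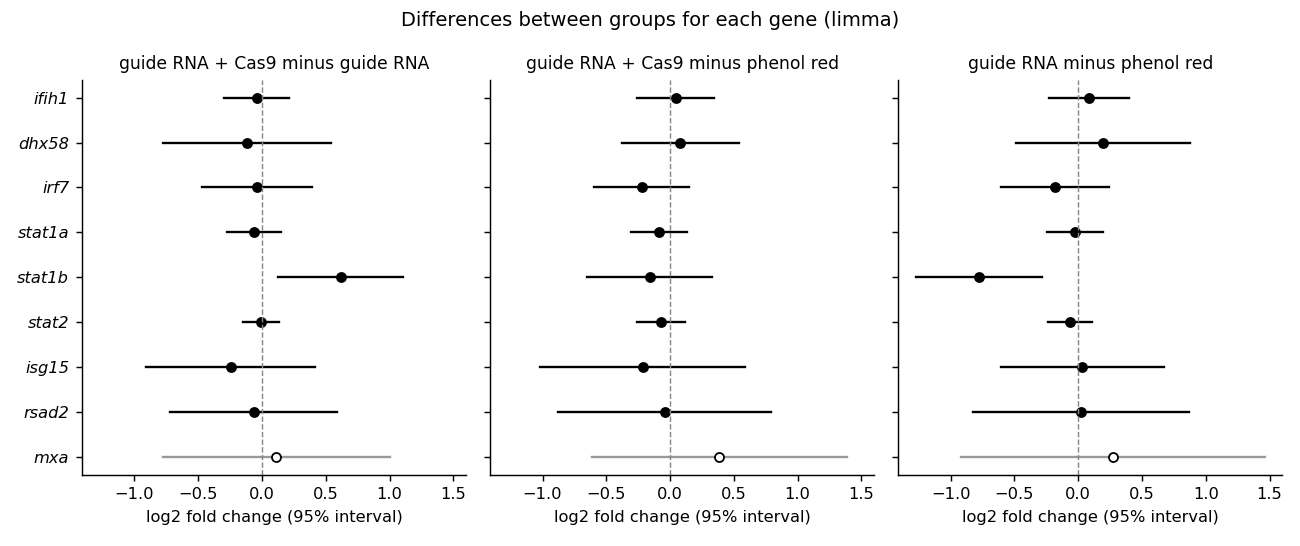
Log2 fold change of each of the 9 genes with its 95% interval (limma, x axes) in the 3 comparisons. Filled points were tested; the open point of mxa comes from a fit without the filter on low values. Only the intervals of stat1b leave out 0, at 0.62 for Cas9 plus guide RNA against guide RNA and -0.78 for guide RNA against phenol red.

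Across all genes few differences were called. The share of genes called at an adjusted p under 0.05 was 0.00463% for Cas9 plus guide RNA against guide RNA (1 of 21590), 0.00463% for Cas9 plus guide RNA against phenol red (1 of 21580) and 0% for guide RNA against phenol red (0 of 21601; limma). edgeR and DESeq2 also called 0 genes for guide RNA against phenol red. With the threshold of 0.05 on the unadjusted p, that comparison had 1 of 8 interferon response genes, stat1b, beside 1.04% of all genes (224). Cas9 plus guide RNA against guide RNA had 1 of 8, again stat1b, beside 0.917% of all genes. Cas9 plus guide RNA against phenol red had 0 of 8, beside 2.29%. Groups that did not overlap were seen for 1 of 8 genes, stat1b, in both comparisons that hold the guide RNA group. Cas9 plus guide RNA against phenol red had 0 of 8, beside 0.426%. The background was 0.204% of all genes for guide RNA against phenol red and 0.232% for Cas9 plus guide RNA against guide RNA. With the library sets as a block, 0 of 8 were called in each comparison, beside 0.0139% of all genes for Cas9 plus guide RNA against guide RNA, 0.00927% for Cas9 plus guide RNA against phenol red and 0.0185% for guide RNA against phenol red. On the unadjusted p under that block, stat1b was again the 1 of 8 under 0.05 in both comparisons with the guide RNA group, beside 4.55% of all genes for Cas9 plus guide RNA against guide RNA and 7.71% for guide RNA against phenol red. Cas9 plus guide RNA against phenol red had 0 of 8, beside 9.12%. In the fit without the sets, the spread between sets counts as error. The share of all genes under 0.05 there was lower than that threshold gives when nothing differs. A lack of calls in that fit is thus weaker evidence of no difference.

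The 8 genes tested had a median log2 fold change of -0.08 for Cas9 plus guide RNA against phenol red, beside 0.005 over all genes, and 2 of 8 were above 0. For guide RNA against phenol red the median was -0.002 beside 0.008, with 4 of 8 above 0. For Cas9 plus guide RNA against guide RNA it was -0.053 beside 0.002, with 1 of 8 above 0. The share of all genes above 0 was 52.2%, 54.7% and 50.9% in the same order of comparisons. In each comparison, 7 of 8 genes had a 95% interval within a 2-fold change in either direction, beside 94.9% of all genes for Cas9 plus guide RNA against phenol red, 94.7% for guide RNA against phenol red and 95.03% for Cas9 plus guide RNA against guide RNA. The exceptions were isg15 for Cas9 plus guide RNA against phenol red, with a lower bound of 0.494-fold, and stat1b in the other comparisons. The median width of the intervals of these genes on the log2 scale was 0.92 for guide RNA against phenol red, beside 0.44 over all genes.

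**Figure D3:**
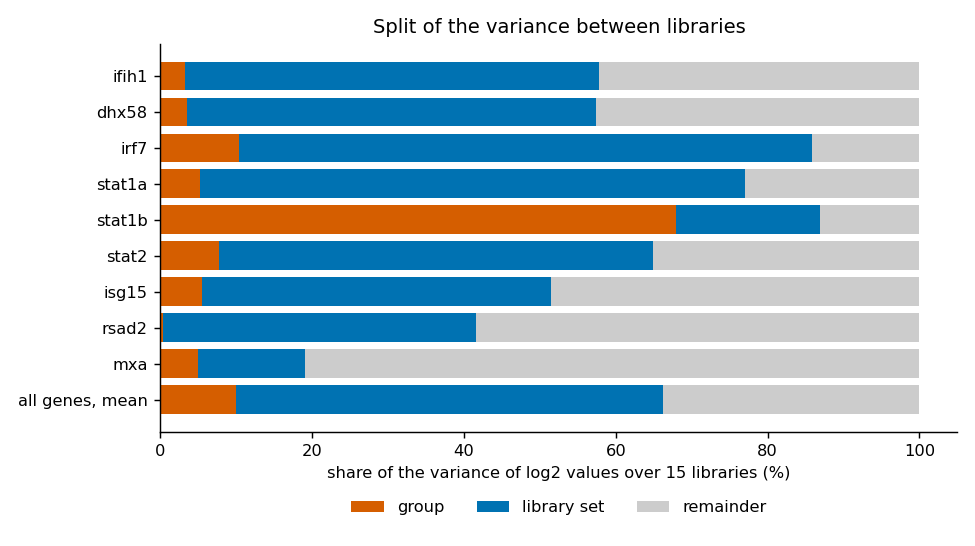
Share of the variance of log2 normalized counts over 15 libraries that falls to the group, to the library set and to the remainder (x axis, %), for the 9 genes and as the mean over 21902 genes. For stat1b the group holds 68.0%; for the other 8 genes it holds 0.289% to 10.3%, against a mean of 9.93% over all genes.

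Among the 28 pairs of the 8 tested genes, 3 had a Pearson r above 0.5 over the 15 libraries, and the median r was 0.11. All 3 held rsad2: with stat2 (r = 0.66), isg15 (r = 0.66) and dhx58 (r = 0.60). The lowest was stat1a with ifih1, at r = -0.54, a pair whose set A libraries were the highest for stat1a and among the 5 lowest for ifih1. Libraries of a set resemble each other, so these are descriptions of 15 libraries that are not independent. Of all genes tested, those most like stat1b over the libraries were trmt112 (r = 0.91), ATG14 (r = 0.81) and SLC6A7 (r = 0.76). Those most like isg15 were rfxank (r = 0.92) and mal (r = 0.81), and those most like rsad2 were atp2a1l (r = 0.87), grid2ipa (r = 0.85) and map3k5 (r = 0.84). stat1a was most like cebpb (r = 0.95), myl9b (r = 0.94) and jmjd7 (r = 0.93). For dhx58 they were cyr61 (r = 0.87), btr12 (r = 0.86) and ctss2.1 (r = 0.81). stat2 was most like capn2l (r = 0.84), slc20a2 (r = 0.84) and tmem8a (r = 0.83), and ifih1 most like snrnp40 (r = 0.83), sema3bl (r = 0.82) and hgfa (r = 0.80). irf7 was most like gfral (r = 0.88) besides 2 genes with clone names. The mean of the 8 genes was most like rsad2 itself (r = 0.87), then map3k5 (r = 0.82), plag1 (r = 0.80) and rfxank (r = 0.79). Each of these was picked as the highest of all genes tested, so its size is no test.

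The wider pathway was read from 3 more lists. Beside them, at most 0.00463% of all genes were called in any comparison (limma, without the library sets). Other nucleic acid sensors and adaptors gave 24 genes tested, with 0 called in each comparison. Their median log2 fold change was -0.016 for Cas9 plus guide RNA against phenol red and -0.011 for guide RNA against phenol red. Before adjustment, 2 of 24 had p under 0.05 for guide RNA over phenol red, beside 0.518% of all genes in that direction, and 0 of 24 in the other direction. The other comparisons had 0 of 24. These counts and the share of 0.518% come from limma without the library sets. With the sets as a block, 7.71% of all genes had an unadjusted p under 0.05 for guide RNA against phenol red, in either direction. How many of the 24 did so under the block is not given here.

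One was pkz, a fish relative of the double-stranded RNA-dependent kinase PKR that binds left-handed nucleic acid. pkz had normalized counts of 22, 29.7, 32.3, 23.9 and 26.7 with Cas9 plus guide RNA, 30.8, 40.5, 25.9, 36.1 and 33 with guide RNA and 28.6, 23.1, 23.3, 25.4 and 21.7 with phenol red. 4 of 5 guide RNA libraries were above every phenol red library, and the fifth, in set C, was not. The log2 fold change of pkz was 0.42 ± 0.17 (SE; limma, adjusted p = 1.0) for guide RNA against phenol red and 0.13 ± 0.18 for Cas9 plus guide RNA against phenol red. The other was tmem173, which encodes Sting, the adaptor for cytosolic DNA. Its normalized counts were 36.7, 42.8, 28.2, 43.9 and 34.6 with Cas9 plus guide RNA, 46.7, 47.9, 25.1, 39.1 and 42.2 with guide RNA and 31.8, 27.5, 32.7, 26.6 and 23.6 with phenol red. In both groups with guide RNA, 4 of 5 libraries were above every phenol red library, and the set C library was not. The log2 fold change of tmem173 was 0.46 ± 0.20 (SE; limma, adjusted p = 1.0) for guide RNA against phenol red and 0.37 ± 0.18 for Cas9 plus guide RNA against phenol red. When 1 library was left out in turn, the guide RNA value of tmem173 ran from 0.39 to 0.62 and that of pkz from 0.35 to 0.50. The unadjusted p crossed 0.05 in both genes when 1 library was left out, while the direction stayed: it was above 0.05 for pkz without the guide RNA library of set B, D or E or the phenol red library of set B, C or E, and for tmem173 without the guide RNA library of set A, B, D or E or the phenol red library of set B, D or E. It stayed below 0.05 for each gene without any 1 of the remaining libraries. With DESeq2 it was above 0.05 for pkz as well. Other alternative fits gave both genes a lower unadjusted p than the main fit. For Cas9 plus guide RNA against phenol red, that of tmem173 also went below 0.05 in an alternative fit, while that of pkz did not.

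tlr8b, a Toll-like receptor of the endosomal family that binds single-stranded RNA in mammals, averaged 12.4 ± 2.32 with Cas9 plus guide RNA, 14.1 ± 3.1 with guide RNA and 9.41 ± 3.64 with phenol red (SD, n = 5 each). Its log2 fold change was 0.58 ± 0.30 (SE) for guide RNA against phenol red and 0.41 ± 0.30 for Cas9 plus guide RNA against phenol red, and the groups overlapped. The unadjusted p of tlr8b for guide RNA against phenol red was above 0.05, but below it in an alternative fit. traf3, an adaptor downstream of Mavs, averaged 430.0 ± 17.3 with Cas9 plus guide RNA, 441 ± 11.4 with guide RNA and 414 ± 19.7 with phenol red (SD, n = 5 each), a log2 fold change of 0.092 ± 0.06 (SE) for guide RNA against phenol red. pkz, tmem173, tlr8b and traf3 are the 4 genes of this list with the smallest p for guide RNA against phenol red.

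**Figure D4:**
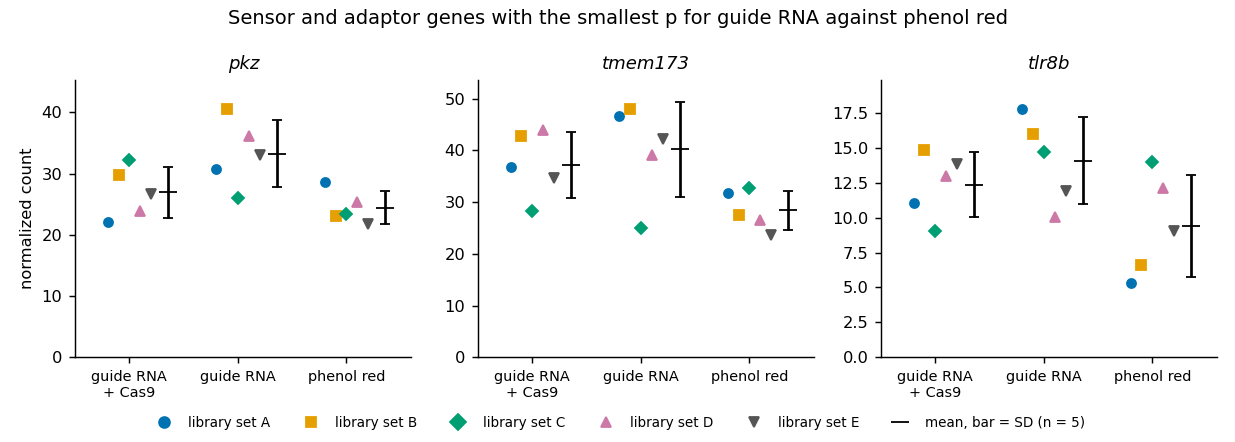
Normalized counts of pkz, tmem173 and tlr8b in each of the 15 libraries (y axes from 0), by group, with the mean ± SD (n = 5) and the library set as symbol. For pkz and tmem173 the guide RNA libraries lie above those with phenol red apart from the set C library, at 25.9 and 25.1.

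The list of interferons, receptors, Janus kinases and Socs regulators had 14 genes in the tables, of which 11 were tested and 0 called. No interferon gene was among those tested: ifnphi3 and ifnphi4, like socs1b, were below the filter on low values. The interferon genes ifnphi1, ifnphi2, ifng1 and ifng1r were looked for and not found by name. The log2 fold changes of the tested receptor, kinase and Socs genes ran from -0.063 to 0.089 for guide RNA against phenol red and from -0.099 to 0.12 for Cas9 plus guide RNA against phenol red. The kinase gene jak2a averaged 1311 ± 137 with Cas9 plus guide RNA, 1171 ± 83.2 with guide RNA and 1207 ± 106 with phenol red (SD, n = 5 each). The receptor chain gene crfb17 averaged 191 ± 24.3 with Cas9 plus guide RNA, 213 ± 26 with guide RNA and 202 ± 35.9 with phenol red (SD, n = 5 each). ifngr1, for a chain of the interferon gamma receptor, had a log2 fold change of -0.063 ± 0.088 (SE) and the receptor gene crfb6 -0.04 ± 0.075, both for guide RNA against phenol red. No gene of this list differed at an unadjusted p under 0.05 in any comparison, beside 0.917% to 2.29% of all genes (limma).

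Other interferon-stimulated genes gave 35 genes tested for Cas9 plus guide RNA against phenol red, 37 for guide RNA against phenol red and 36 for Cas9 plus guide RNA against guide RNA. In each, 0 were called and 0 had an unadjusted p under 0.05, beside 2.29%, 1.04% and 0.917% of all genes in that order (limma). The medians of the list's log2 fold changes were -0.033 for Cas9 plus guide RNA against phenol red, with 14 of 35 above 0, and 0.003 for guide RNA against phenol red, with 19 of 37 above 0. The 4 with the smallest p for guide RNA against phenol red went in both directions. irge4, an immunity-related GTPase gene, had a log2 fold change of 0.52 ± 0.32 (SE), and psmb9a, for an immunoproteasome subunit, 0.48 ± 0.36. helz2, for a helicase, had a log2 fold change of -0.30 ± 0.22, and uba7, for the enzyme that activates Isg15, -0.25 ± 0.19. uba7 averaged 102 ± 19.5 with Cas9 plus guide RNA, 102 ± 22 with guide RNA and 122 ± 27.7 with phenol red (SD, n = 5 each). The count of 0 under an unadjusted p of 0.05 depends on the fit. For guide RNA against phenol red, uba7 and irge4 each went below 0.05 in an alternative fit, while psmb9a and helz2 did not.

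Of the inflammatory response genes, 17 were tested and 0 called, beside at most 0.00463% of all genes in any comparison. The list's median log2 fold changes were -0.003 for Cas9 plus guide RNA against phenol red and 0.007 for guide RNA against phenol red. mmp13a, for a collagenase made in wounded and inflamed tissue, had a log2 fold change of 0.26 ± 0.14 (SE) for guide RNA against phenol red. il1b, the cytokine interleukin 1 beta, had one of -0.26 ± 0.25, and tnfb, a tumour necrosis factor gene, -0.27 ± 0.28. c3a.1, a complement gene made mostly in liver, had a log2 fold change of -0.54 ± 0.71. Its normalized counts ran from 39.9 to 2028 with Cas9 plus guide RNA, 230.2 to 2034 with guide RNA and 271 to 2186 with phenol red, in pools whose liver and yolk RNA varied as given above. Set A gave the highest library of each group, both for c3a.1 and for the summed markers of tissue outside the head. The part of that RNA in the value of c3a.1 was not tested.

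**Figure D5:**
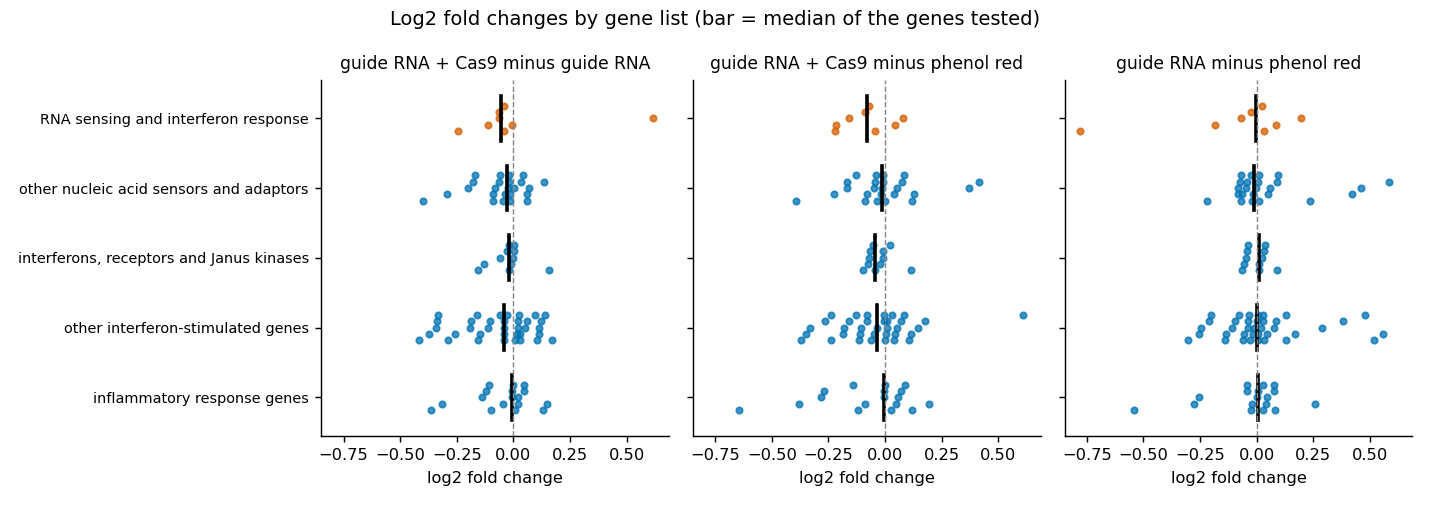
Log2 fold change (limma, x axes) of every tested gene of the interferon response genes described here (top row, orange) and of the 4 other lists (blue), in the 3 comparisons; the black bar is the list's median. The list medians lie between -0.08 and 0.01, and no gene passed after adjustment over all genes. No interferon gene is among those drawn.

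Macrophages and neutrophils are among the innate immune cells of the embryo. All 16 macrophage and neutrophil markers were found, none was at 0 in every library, and their summed normalized count was 2527 to 3705 with Cas9 plus guide RNA, 2529 to 3656 with guide RNA and 2767 to 3491 with phenol red. The range of each group overlapped those of the others, and the part of these cells in the values above was not tested.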

How the data were processed

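Messenger RNA of 15 head pools was selected on oligo-dT beads, made into stranded libraries and sequenced as 50 bp single ends, 5 libraries to a lane, per the labels' protocols. Which library ran in which lane is not stated. The submitters' processing notes list STAR, HTSeq and DESeq2, and for trimming and demultiplexing cutadapt, Trim Galore and bcl2fastq. The sources used here do not give their versions, the genome build, the annotation or the strand setting.

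The authors deposited 3 tables, each with 10 libraries of a pair of groups. The values the authors deposited are a signal, namely read counts divided by a size factor (normalized counts). All values came out as whole reads within 0.001 once the value of 1 read was found, and libraries held in 2 tables had the same values. Beside them the authors deposited log2 fold changes with their errors, a test score, p-values and adjusted p-values. The columns of libraries carry running numbers, and the group of a column comes from the pair of tables that hold it. No label ties a column to a replicate number. The series calls the samples biological replicates. Sample titles and treatment labels number the guide RNA differently.

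Genes with a value of at least 10 in at least 5 libraries of a comparison were tested on log2(value + 1) with limma 3.58.1 (trend, robust empirical Bayes, R 4.3.3), and p-values were adjusted by Benjamini-Hochberg over all genes tested, with a threshold of 0.05. On this scale the change of a low gene is understated. Alternatives were edgeR 4.0.16 (quasi-likelihood) and DESeq2 1.42.0 on the recovered reads, TMM rescaling, other filters and pseudocounts, 1 fit of all 3 groups, a block for library sets, and leaving out each library or set. The script was tested on simulated data. Gene symbols were matched through RefSeq synonyms, and those without a match were left out. Matches were found for 25 of 28 symbols of other sensors and adaptors and 15 of 22 of interferons, receptors and kinases. For other interferon-stimulated genes it was 42 of 63, and for inflammatory response genes 19 of 25. Sequences were not used here.

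The genes and the lists were chosen with earlier results of these data known. From each other list, the 4 genes with the smallest unadjusted p for guide RNA against phenol red are named, with any gene called. Most alike in pattern are the 3 genes with the highest Pearson r over the 15 libraries for each member and the 5 for their mean, where clone names are counted and not named. For isg15, 1 of the 3 is not reported here. For genes of the other lists the alternatives were added after seeing the data.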

Additional observations from a re-analysis of the deposited data

How the results depend on the processing

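By replicate number, no paired analysis was possible because the columns carry running numbers that no label ties to a replicate. The library sets found from the values follow the order of these running numbers within each group, and were taken as a block: 3 genes were then called for Cas9 plus guide RNA against guide RNA, 2 for Cas9 plus guide RNA against phenol red and 4 for guide RNA against phenol red. The block narrowed the SE of the log2 fold change for genes that differ between sets. For guide RNA against phenol red it was 0.057 for stat1a, 0.050 for stat2 and 0.12 for irf7. Without the block these were 0.10, 0.08 and 0.19. For stat1b the SE was wider with the block, at 0.25 against 0.23. DESeq2 called 2 genes for Cas9 plus guide RNA against phenol red. The genes described here and the 3 pathway lists had 0 calls under every alternative. Over all alternatives stat1b kept its direction, from -0.90 to -0.49 for guide RNA against phenol red and from 0.38 to 0.70 for Cas9 plus guide RNA against guide RNA. Its lowest adjusted p over them was 0.418, with the library sets as a block. The medians of the interferon response genes ran from -0.14 to 0.08 for guide RNA against phenol red, from -0.14 to -0.039 for Cas9 plus guide RNA against phenol red and from -0.082 to 0.0041 for Cas9 plus guide RNA against guide RNA. Of 593 values of these genes over the alternatives, 53 had the other sign, none beyond 0.252 in size, and so had 4 of 509 values of the 16 named genes of the other lists. The cause was not tested.

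For guide RNA against phenol red, the sign of the log2 fold change turned with edgeR for rsad2 (-0.0925) and isg15 (-0.0578), with DESeq2 for rsad2 (-0.0903) and isg15 (-0.055), with a pseudocount of 5 for rsad2 (-0.00818), with a pseudocount of 10 for rsad2 (-0.017) and isg15 (-0.00313), without library set A for rsad2 (-0.21), isg15 (-0.0234) and dhx58 (-0.0508), without library set B for rsad2 (-0.22) and isg15 (-0.25), without library set D for stat1a (0.0108) and crfb17 (-0.00749) and without library set E for ifih1 (-0.0167). For Cas9 plus guide RNA against guide RNA, the sign of the log2 fold change turned without library set A for stat2 (0.00405), irf7 (0.0411) and dhx58 (0.16), without library set B for rsad2 (0.0204) and stat2 (0.00366), without library set C for stat2 (0.0406) and without library set E for ifih1 (0.0207). With 1 library left out in turn, values for guide RNA against phenol red ran from -0.22 to 0.20 for rsad2, from -0.0892 to 0.0446 for stat1a, from -0.19 to 0.21 for isg15, from -0.0214 to 0.39 for dhx58, from -0.10 to 0.00225 for jak2a, from -0.0774 to 0.0155 for crfb6 and from -0.12 to 0.00074 for ifngr1. Values for Cas9 plus guide RNA against phenol red ran from -0.0225 to 0.14 for ifih1, from -0.0235 to 0.19 for dhx58 and from -0.28 to 0.0691 for rsad2. Values for Cas9 plus guide RNA against guide RNA ran from -0.13 to 0.00134 for stat1a, from -0.19 to 0.0692 for irf7, from -0.31 to 0.10 for dhx58, from -0.0532 to 0.0273 for stat2, from -0.24 to 0.0475 for rsad2 and from -0.10 to 0.015 for ifih1. rsad2 fell below the filter without some libraries of Cas9 plus guide RNA, guide RNA or phenol red and has no value there, and under the filter of 50 the low genes have none. Depth limits isg15, rsad2, mxa and stat1b, which had 1 to 25 reads per library. The unadjusted p of stat1b for Cas9 plus guide RNA against guide RNA was above 0.05 with DESeq2 and without library set E.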
